A study of Arabidopsis thaliana with 9 samples.

Results

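Of 37898 nuclear gene rows, 70 made up the set of genes lower in both overexpressor lines than in WT Arabidopsis seedlings, whichever long noncoding RNA the line carried. The 70 were chosen by their levels in these libraries: mean CPM (a gene's count over the sum of nuclear gene counts of its library, scaled to 1e6) of at least 5, every overexpressor value below the lowest WT value, and a group mean at most 0.67 times the WT mean in both lines. Of the 14706 genes that reached 5 CPM, 1606 were below every WT value in both lines. A further 364 of those met the ratio limit only in OE UPAT and 44 only in OE APOLO.

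All groups shared the Col-0 (Columbia-0) accession. Seeds were kept at 4 °C for 2 days before germination, and seedlings were harvested whole at 4 days, grown at 23 °C with 16 h of light and 8 h of darkness. WT carried no transgene, OE APOLO carried 35S:APOLO and OE UPAT carried 35S:UPAT, with 3 biological replicates each, lettered A, B and C. The 35S promoter is a viral promoter active in most plant cells, APOLO is an Arabidopsis long noncoding RNA, and UPAT is a human long noncoding RNA that binds the chromatin protein UHRF1. Each overexpressor was represented by 1 transgenic line, so that an effect of the transgene and an effect of that line's insertion cannot be told apart.

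The largest group of related enzymes in the set acts in amino acid breakdown, a process known from plants that are short of sugar. When carbohydrate runs short, as in prolonged darkness, plant cells switch on enzymes that break down branched-chain amino acids, lysine, tyrosine and methionine and feed the carbon skeletons into mitochondrial respiration. Transaminases remove the amino group, the branched-chain keto acid dehydrogenase complex decarboxylates the product, and acyl-CoA dehydrogenases pass electrons to the respiratory chain.

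The nuclear gene rows held from 7846387 to 14057580 counts per library, with the 3 OE UPAT libraries the shallowest. The lowest count of any member in any library was 15. APOLO itself (AT2G34655) was at 2 counts in each WT library and from 1 to 3 in those given the OE APOLO label, so the label of OE APOLO was not seen in its own transcript and each value given for OE APOLO is that of the libraries so labelled. UPAT has no row in the tables. In whole seedlings, fewer cells of a type and less RNA per cell cannot be told apart.

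Promoters are shown for 3 members that encode enzymes of amino acid breakdown and hold a core of the abscisic acid response element, the motif whose share among the members stood furthest above that among all genes. Each run is the 250 bases upstream of the annotated start, 5′ to 3′ on the coding strand, read from RefSeq's TAIR10.1 assembly. Capitals mark ACGTGT or ACGTGG or their reverse complements.
BCAT-2, chromosome 1, plus strand, chr1:3287837-3288086: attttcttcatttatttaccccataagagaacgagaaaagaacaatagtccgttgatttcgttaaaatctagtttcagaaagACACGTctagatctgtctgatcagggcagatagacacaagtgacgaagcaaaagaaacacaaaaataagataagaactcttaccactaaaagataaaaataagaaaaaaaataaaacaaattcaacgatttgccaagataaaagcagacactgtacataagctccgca
MGL, chromosome 1, plus strand, chr1:24028580-24028829: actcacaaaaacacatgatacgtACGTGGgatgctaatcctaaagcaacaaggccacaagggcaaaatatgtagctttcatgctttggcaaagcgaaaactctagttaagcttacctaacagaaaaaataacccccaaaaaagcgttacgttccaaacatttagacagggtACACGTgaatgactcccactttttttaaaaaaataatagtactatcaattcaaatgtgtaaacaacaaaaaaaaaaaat
AGT3, chromosome 2, plus strand, chr2:16083395-16083644: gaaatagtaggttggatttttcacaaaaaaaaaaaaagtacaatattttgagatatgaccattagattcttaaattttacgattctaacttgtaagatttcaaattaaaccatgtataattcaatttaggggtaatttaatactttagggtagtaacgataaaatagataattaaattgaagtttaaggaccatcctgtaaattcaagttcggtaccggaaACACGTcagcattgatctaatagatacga

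The members lay at a median of 0.601 times the WT mean in OE APOLO (range 0.139 to 0.666) and 0.456 times in OE UPAT (range 0.157 to 0.663), beside medians of 0.976 and 0.977 over all 14706 genes. The OE UPAT ratio was the lower of the pair for 56 members and the OE APOLO ratio for 14. Of the members, 8 were at or below 0.5 in both lines, 12 were so in OE APOLO and 39 in OE UPAT. These values come from the contrasts that chose the members and are a description. For the same reason, the 61 members with an adjusted p under 0.01 in OE APOLO against WT (2.27% of 20021 genes tested were called lower there and 4.27% higher) and the 67 in OE UPAT against WT (9.72% lower and 10.1% higher) are given without further reading (edgeR's quasi-likelihood test, Benjamini-Hochberg adjustment over all genes tested).

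**Figure D1:**
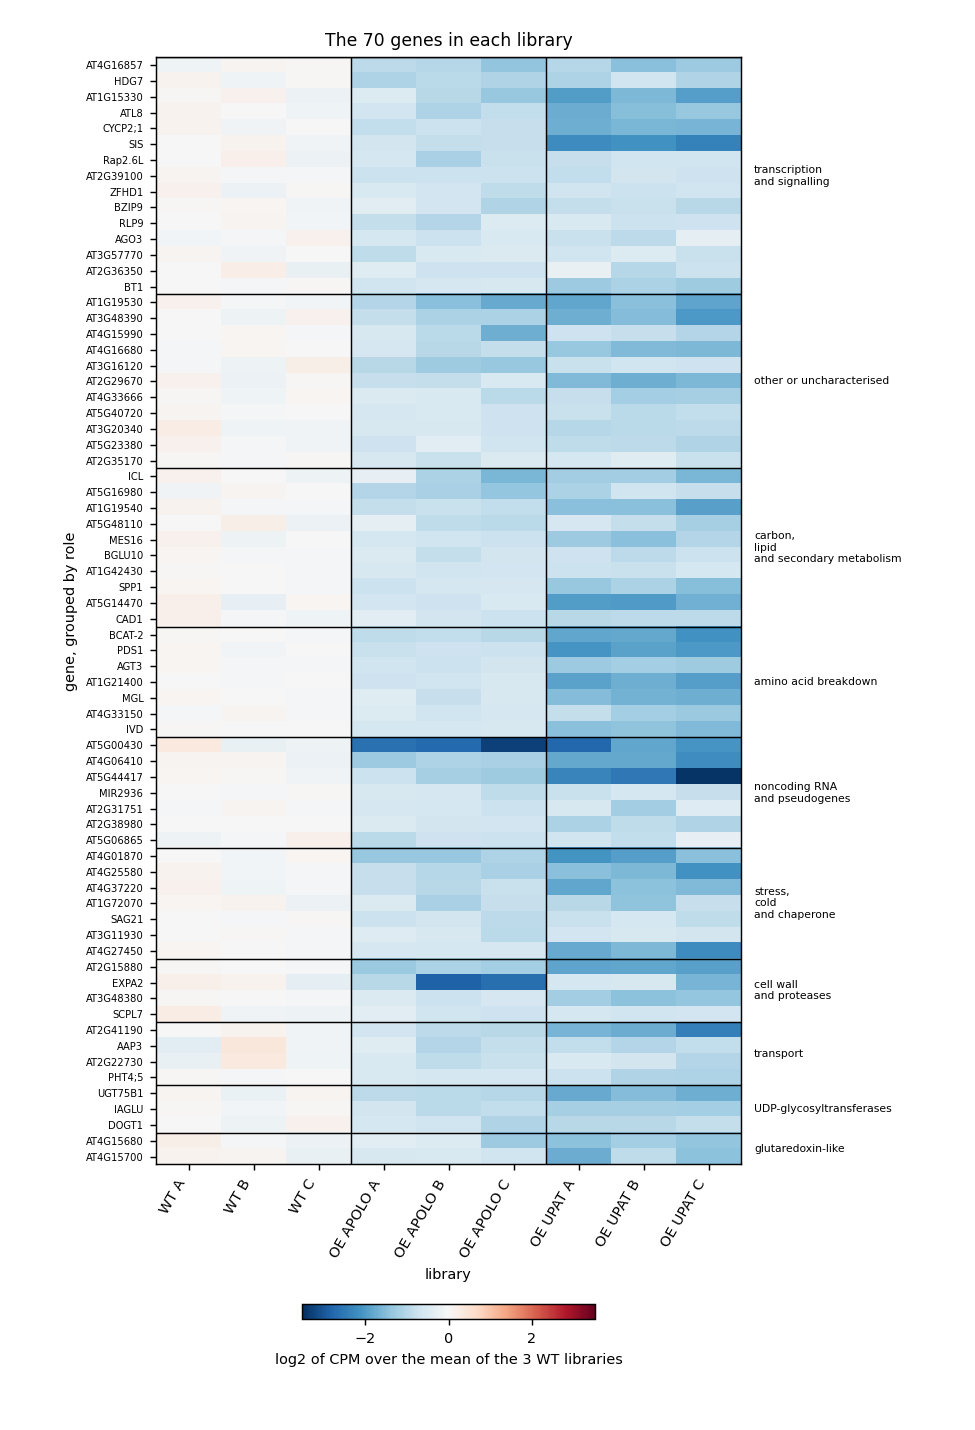
Level of each of the 70 members in each library, as log2 of its CPM over the mean of the 3 WT libraries (colour scale), with members in rows grouped by role and libraries in columns. Blue fills all 6 overexpressor columns, since the members were chosen for it, and it is deepest in AT5G00430 and AT5G44417.

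OE UPAT and OE APOLO were also compared with each other. The rule set no condition on the difference between the lines, but it set limits on every value and on the mean of both lines, so this comparison is not independent of the choice of members and its p-values describe the members as chosen. In OE UPAT, 33 of the 70 members were lower than in OE APOLO at an adjusted p under 0.01 and 0 were higher, where 9.36% of all 20021 genes tested were called lower and 8.49% higher (edgeR's quasi-likelihood test, Benjamini-Hochberg adjustment). At an unadjusted p under 0.05 the counts were 39 lower and 3 higher, and DESeq2 called 32 lower and 0 higher. The median log2 fold change of OE UPAT against OE APOLO over the members was -0.39, and -0.01 over all genes tested. Every OE UPAT library was below every OE APOLO library for 37 members, and above it for 1, with 21.6% and 22.2% of the 14706 genes separated in these directions. These counts stand beside the 364 genes that met the limit of 0.67 only in OE UPAT and the 44 that met it only in OE APOLO.

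**Figure D2:**
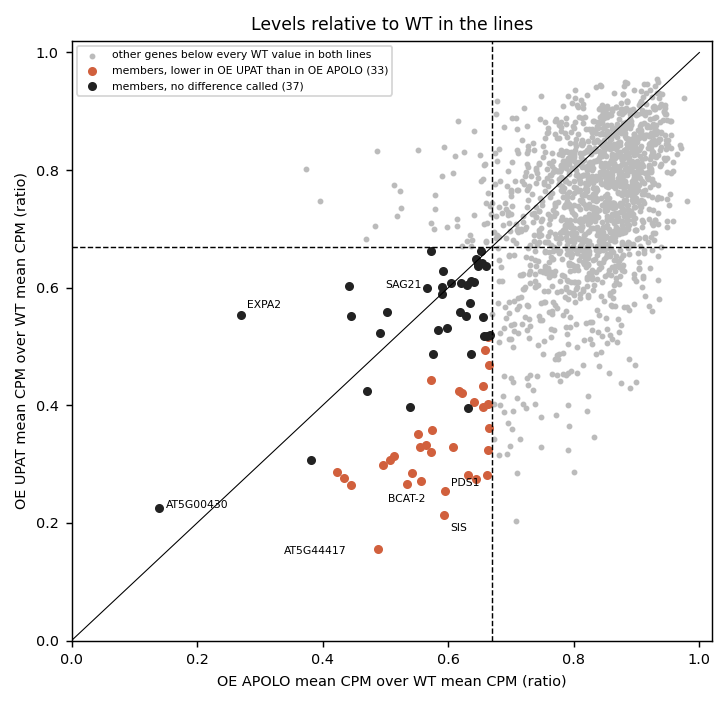
Ratio of the OE UPAT mean to the WT mean (vertical axis) against the ratio of the OE APOLO mean to the WT mean (horizontal axis) for the 1606 genes below every WT value in both lines. Orange points are the 33 members called lower in OE UPAT than in OE APOLO, black points the other 37 members, grey points genes outside the rule, dashed lines the limit of 0.67 and the solid line equal ratios. Most members lie under the solid line, with EXPA2 and AT5G00430 above it.

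Roles were assigned to the members alone, so no count of a role among all genes can be set beside them. The counts by role, here and below, stand beside 33 of all 70 members and 9.36% of all genes tested. All 7 members of amino acid breakdown were lower in OE UPAT than in OE APOLO at an adjusted p under 0.01 (edgeR), with a median log2 fold change of -1.03. BCAT-2 (AT1G10070), a branched-chain amino acid transaminase that takes the amino group from leucine, isoleucine and valine, had 610, 595 and 559 CPM in WT A, B and C. It had 316, 327 and 300 CPM in OE APOLO and 167, 168 and 136 CPM in OE UPAT. The 3 groups were far apart, and OE UPAT was lower than OE APOLO by a log2 fold change of -1.03 ± 0.08 (SE, adjusted p = 6.23e-07, edgeR's quasi-likelihood test).

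AT1G21400, annotated with 3-methyl-2-oxobutanoate dehydrogenase activity, catalyses the step after the transamination, the decarboxylation of the branched-chain keto acids. Its levels were 551, 535 and 555 CPM in WT, 330, 337 and 369 CPM in OE APOLO and 150, 167 and 145 CPM in OE UPAT. OE UPAT lay below OE APOLO by a log2 fold change of -1.19 ± 0.08 (SE, adjusted p = 1.61e-07, edgeR). IVD (AT3G45300), the isovaleryl-CoA dehydrogenase that oxidises the next intermediate of leucine breakdown in mitochondria, had 251, 244 and 241 CPM in WT. In OE APOLO it had 161, 161 and 168 CPM, and in OE UPAT 89.4, 92.9 and 84.2 CPM. IVD stood just inside the limit of 0.67 in OE APOLO, at 0.665, and was at 0.362 in OE UPAT (log2 fold change of OE UPAT against OE APOLO -0.90 ± 0.07, SE, adjusted p = 4.97e-07, edgeR).

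The remaining 4 act on other amino acids. PDS1 (AT1G06570), the 4-hydroxyphenylpyruvate dioxygenase of tyrosine breakdown and of the route to plastoquinone and tocopherol, went from 260, 232 and 251 CPM in WT to 144, 151 and 146 CPM in OE APOLO and 59.7, 67.3 and 61.8 CPM in OE UPAT. The groups did not overlap, the ratio of OE UPAT to WT was 0.254, and the log2 fold change between the lines was -1.25 ± 0.09 (SE, adjusted p = 1.6e-07, edgeR). MGL (AT1G64660), the methionine gamma-lyase that splits methionine, had 86.3, 82.8 and 77.9 CPM in WT, 61.1, 46.9 and 55.9 CPM in OE APOLO and 28.8, 26.3 and 25.0 CPM in OE UPAT. The bifunctional lysine-ketoglutarate reductase/saccharopine dehydrogenase (AT4G33150), which starts lysine breakdown, had 230, 259 and 231 CPM in WT, 172, 148 and 159 CPM in OE APOLO and 134, 105 and 97.9 CPM in OE UPAT. No library of one group reached into another for either gene. AGT3 (AT2G38400), annotated as an alanine:glyoxylate aminotransferase, averaged 189 ± 9.2 CPM in WT, 117 ± 3.7 CPM in OE APOLO and 80.2 ± 2.3 CPM in OE UPAT (SD, n = 3).

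**Figure D3:**
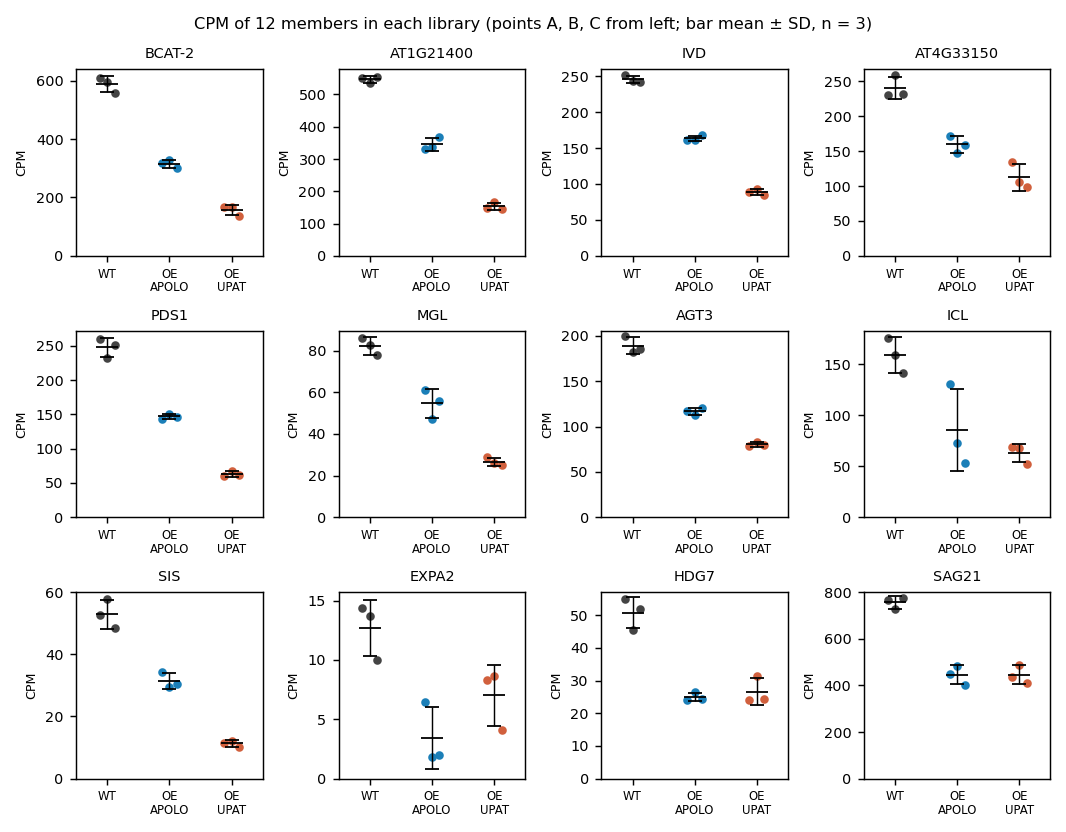
CPM of 12 members (one panel each, vertical axis from 0) in the 3 WT, 3 OE APOLO and 3 OE UPAT libraries. Points are libraries A, B and C from left to right and bars the mean ± SD (n = 3). The 7 genes of amino acid breakdown step down from WT to OE APOLO to OE UPAT without overlap, ICL and EXPA2 are scattered within OE APOLO, and HDG7 and SAG21 overlap between the lines.

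Other genes of branched-chain amino acid breakdown were taken from a pathway list of 17 measured genes, 3 of them members. To this list 3 genes had been added by locus after the members were seen, so its count of members is not independent of them. Of the 14 outside the module, 4 were lower in OE APOLO than in WT and 9 in OE UPAT than in WT. Between the lines, 9 were lower in OE UPAT than in OE APOLO, with 0 higher in any of the comparisons (adjusted p under 0.01, edgeR). Over all genes tested, 2.27%, 9.72% and 9.36% were lower in these comparisons. Both counts of 9 include LPD1 (AT3G16950), which was matched by symbol and encodes a plastid enzyme, not the mitochondrial one of this pathway. The median log2 fold changes of the 14 in these comparisons were -0.23, -0.65 and -0.48, while none of the medians over all genes tested was below -0.01. MCCA (AT1G03090) and MCCB (AT4G34030), the subunits of 3-methylcrotonyl-CoA carboxylase that follow IVD in leucine breakdown, were at 0.715 and 0.739 times WT in OE APOLO, outside the limit, and at 0.343 and 0.403 times in OE UPAT. ETFQO, which hands the electrons of IVD to ubiquinone, was at 0.697 and 0.513 times WT. The other branched-chain transaminase on the list, BCAT-1 (AT1G10060), was at 1.2 and 0.868 times WT and was not called in either line (adjusted p = 0.195 and 0.375, edgeR). Its ratio in OE APOLO rested on OE APOLO C, at 54.8 CPM. OE APOLO A and B were at 33.8 and 34.6 CPM, beside 33.0 to 34.8 CPM in WT.

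**Figure D4:**
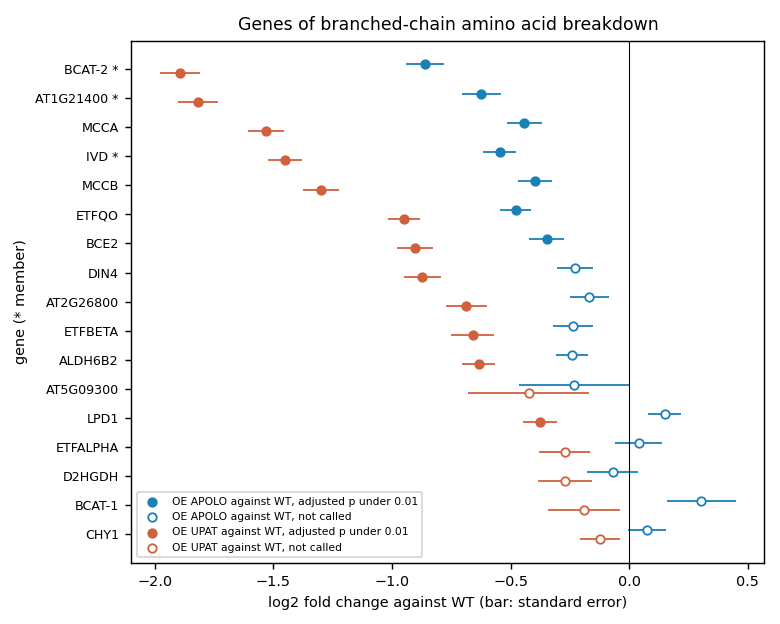
Log2 fold change against WT (horizontal axis, bar: standard error) of the 17 genes on the branched-chain amino acid breakdown list in OE APOLO (blue) and OE UPAT (orange), filled where the adjusted p was under 0.01. LPD1 is on the list by its symbol and encodes a plastid enzyme outside this pathway. Asterisks mark the 3 members, whose WT contrasts were used to choose them. Every filled point lies left of 0, and the OE UPAT point lies left of the OE APOLO point for each gene.

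Genes induced by darkness or sugar starvation held 4 members: BCAT-2, IVD, ATL8 and SIS. SIS (AT5G02020), annotated as an RLIM-like ubiquitin ligase, had the smallest p of all members in the direct comparison. It had 52.6, 57.7 and 48.3 CPM in WT, 34.1, 29.5 and 30.3 CPM in OE APOLO and 11.5, 12.2 and 10.2 CPM in OE UPAT, and the log2 fold change between the lines was -1.49 ± 0.09 (SE, adjusted p = 5.89e-08, edgeR). ATL8 (AT1G76410), a RING-type ubiquitin ligase family gene, averaged 19.3 ± 1.9 CPM in WT, 10.7 ± 1.5 CPM in OE APOLO and 6.78 ± 0.92 CPM in OE UPAT (SD, n = 3). Over the 28 measured genes of this list outside the module, 6 were lower and 1 was higher in OE APOLO than in WT. In OE UPAT, 18 were lower and 0 higher than in WT, and 17 were lower and 1 higher than in OE APOLO (adjusted p under 0.01, edgeR). Over all genes tested, the shares lower and higher were 2.27% and 4.27%, 9.72% and 10.1%, and 9.36% and 8.49% in these comparisons. MCCA, MCCB, BCE2 and DIN4 are also on the branched-chain list, so the counts of both lists share genes. The gene called higher was AT3G59940, at 1.49 times WT, in OE APOLO, and DIN2 (AT3G60140), a beta-glucosidase gene, between the lines. DIN2 was at 0.480 times WT in OE APOLO, where it was called lower, and at 0.802 times in OE UPAT, where it was not called. SEN1 and ASN1, widely used marker genes of darkness, were at 0.792 and 0.801 times WT in OE APOLO, where neither was called, and at 0.324 and 0.287 times WT in OE UPAT, where both were.

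Transport held 4 members. AT2G41190, annotated as a transmembrane amino acid transporter, had 65.2, 72.1 and 61.2 CPM in WT, 41.6, 35.4 and 33.6 CPM in OE APOLO and 21.4, 19.96 and 12.6 CPM in OE UPAT, so that the OE UPAT libraries were all lower than the OE APOLO libraries (log2 fold change -1.05 ± 0.13, SE, adjusted p = 2.49e-05, edgeR). PHT4;5 (AT5G20380), of the phosphate transporter 4 family, was at 0.663 and 0.515 times WT and was also lower in OE UPAT than in OE APOLO. The amino acid permease AAP3 (0.598 and 0.532 times WT) and the major facilitator AT2G22730 (0.605 and 0.608 times) had means under 10 CPM and scattered in WT, and their margins between the lowest WT and the highest overexpressor value were 1.04 and 1.2 times.

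Among 10 genes of carbon, lipid and secondary metabolism, ICL (AT3G21720), the isocitrate lyase of the glyoxylate cycle by which germinating seedlings turn stored oil into sugar, was the most scattered. ICL had 176, 159 and 141 CPM in WT, 131, 73.2 and 52.9 CPM in OE APOLO and 69.0, 67.8 and 52.6 CPM in OE UPAT. OE APOLO A was close to the lowest WT value, OE APOLO B lay just above the highest OE UPAT value and OE APOLO C lay within the range of OE UPAT. The difference between the lines had an adjusted p of 0.125 (edgeR), which became 0.00633 without OE APOLO C, and the log2 fold change of -0.46 shrank to -0.06 without OE APOLO A. Of this role, 4 genes were called lower in OE UPAT than in OE APOLO: the sphingosine-1-phosphate phosphatase gene SPP1 (0.641 and 0.406 times WT), AT5G14470, a GHMP kinase (0.644 and 0.275 times), AT1G19540, an NmrA-like protein (0.565 and 0.332 times), and MES16, methyl esterase 16 (0.621 and 0.422 times). The other 5, AT5G16980, AT5G48110, BGLU10, AT1G42430 and CAD1, lay between 0.445 and 0.666 times WT in OE APOLO and between 0.520 and 0.609 times in OE UPAT.

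The 3 UDP-glycosyltransferases attach glucose to small molecules. UGT75B1 (AT1G05560) had 92.4, 73.1 and 92.4 CPM in WT, 45.3, 44.4 and 42.9 CPM in OE APOLO and 25.1, 29.9 and 26.1 CPM in OE UPAT, with a log2 fold change between the lines of -0.73 ± 0.12 (SE, adjusted p = 0.000296, edgeR). The long noncoding RNA AT1G05562 lies antisense to it over its whole 2136 bases, at 0.916 and 1.06 times WT. A share of reads from AT1G05562 was not tested. IAGLU (AT4G15550), which is annotated as the glucosyltransferase of indole-3-acetate, the main auxin, had 36.3, 33.2 and 36.2 CPM in WT, 22.7, 18.4 and 19.4 CPM in OE APOLO and 15.7, 15.6 and 15.5 CPM in OE UPAT. Its difference between the lines (log2 fold change -0.39 ± 0.10, SE, adjusted p = 0.00812, edgeR) passed narrowly, and DESeq2 gave it an adjusted p of 0.0267. DOGT1 (AT2G36800), known for glucosylating deoxynivalenol and brassinosteroids, averaged 26.3 ± 3.2 CPM in WT, 15.3 ± 2.3 CPM in OE APOLO and 13.9 ± 0.78 CPM in OE UPAT (SD, n = 3). It had fractional counts in 7 of the 9 libraries, which reads shared with close relatives would leave.

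Transcription and signalling was the largest role, with 15 members, of which 5 were lower in OE UPAT than in OE APOLO. Besides SIS and ATL8 these were BT1 (AT5G63160), a BTB and TAZ domain protein, CYCP2;1, a P-type cyclin, and AT1G15330, a CBS domain protein. BT1 had 656, 641 and 669 CPM in WT, 401, 440 and 448 CPM in OE APOLO and 269, 303 and 279 CPM in OE UPAT. BT1 is also on the list of genes of nitrate and ammonium assimilation, whose 21 genes tested held no other member.

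For the transcription factors of the module, the libraries of both lines overlapped. HDG7 (AT5G52170), a homeodomain protein of the GLABROUS family, had 54.8, 45.6 and 51.9 CPM in WT, 24.1, 26.4 and 24.4 CPM in OE APOLO and 24.1, 31.3 and 24.3 CPM in OE UPAT. Both lines were near 0.5 times WT, and the log2 fold change between them was 0.06 ± 0.12 (SE, adjusted p = 0.734, edgeR). ZFHD1, Rap2.6L and BZIP9 were at 0.620, 0.566 and 0.628 times WT in OE APOLO and at 0.608, 0.600 and 0.551 times in OE UPAT, and none differed between the lines at an adjusted p under 0.01. The kinases AT3G57770 and AT2G36350, the receptor-like protein RLP9, the RING protein AT2G39100, AGO3 (an Argonaute, the family that carries small RNAs) and the disease resistance gene AT4G16857 also passed no test between the lines. AT2G36350 had the narrowest margin of all members, 1.01 times between its lowest WT value (10.7 CPM in WT C) and its highest overexpressor value (10.6 CPM in OE UPAT A).

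Of 7 stress, cold and chaperone genes, SAG21 (AT4G02380), a late embryogenesis abundant protein gene of senescence and oxidative stress, had 766, 727 and 777 CPM in WT, 452, 484 and 402 CPM in OE APOLO and 438, 490 and 412 CPM in OE UPAT. Its ratios to WT were 0.589 and 0.590, and the lines overlapped (log2 fold change -0.03 ± 0.09, SE, adjusted p = 0.863, edgeR). Per kb of exon it was, at 782 CPM per kb in WT, the highest protein-coding member. AT4G01870, a tolB-like protein, had 110, 103 and 115 CPM in WT, 43.3, 43.5 and 51.6 CPM in OE APOLO and 25.8, 28.9 and 39.4 CPM in OE UPAT. The cold-related genes AT4G25580 (annotated CAP160) and AT4G37220 (annotated WCOR413) were at 0.508 and 0.554 times WT in OE APOLO and at 0.307 and 0.329 times in OE UPAT. AT4G27450, an aluminium-induced protein with YGL and LRDR motifs, averaged 99.5 ± 4.5 CPM in WT, 65.8 ± 1.2 CPM in OE APOLO and 28.1 ± 5.9 CPM in OE UPAT (SD, n = 3). These 4 were lower in OE UPAT than in OE APOLO, AT4G27450 with a log2 fold change of -1.25 ± 0.11 (SE, adjusted p = 1.02e-06, edgeR). AT1G72070, a DnaJ-domain chaperone, and AT3G11930, of the adenine nucleotide alpha hydrolase family, were not called between the lines. The 36 matched genes of the cold and abscisic acid list held no member. Of its 31 genes tested, 0 were lower and 5 higher in OE APOLO than in WT, while 22 were lower and 0 higher in OE UPAT than in WT (adjusted p under 0.01, edgeR). Over all genes tested, 4.27% were higher in OE APOLO and 9.72% lower in OE UPAT than in WT.

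In the cell wall and protease group, AT2G15880, a leucine-rich repeat family protein annotated as a structural constituent of the cell wall, had 483, 471 and 449 CPM in WT, 189, 216 and 203 CPM in OE APOLO and 130, 132 and 125 CPM in OE UPAT. The replicates were close, and the lowest WT value was 2.07 times the highest overexpressor value. EXPA2 (AT5G05290), an expansin, one of the proteins that loosen cell walls, had 14.4, 13.7 and 9.96 CPM in WT, 6.43, 1.78 and 2.02 CPM in OE APOLO and 8.32, 8.62 and 4.08 CPM in OE UPAT. OE APOLO A stood above B and C and inside the range of OE UPAT. EXPA2 had the highest log2 fold change of the members in OE UPAT against OE APOLO, 1.03 ± 0.37 (SE, adjusted p = 0.0474, edgeR), and 1.84 with an adjusted p of 0.000167 without OE APOLO A. SCPL7, a serine carboxypeptidase-like protein, and the peptidase AT3G48380 were at 0.660 and 0.655 times WT in OE APOLO and at 0.636 and 0.397 times in OE UPAT.

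Non-coding genes and pseudogenes made up 7 of the 70 members (10%), against 1.56% of the genes over 5 CPM. AT5G00430, an uncharacterised RNA of chromosome 5, had the lowest OE APOLO ratio of all, with 15.6, 10.2 and 10.9 CPM in WT, 1.99, 1.85 and 1.26 CPM in OE APOLO and 1.82, 3.49 and 2.93 CPM in OE UPAT. The lowest WT value was 2.91 times the highest overexpressor value, the widest margin of any member. AT5G44417, a pseudogene, had the lowest OE UPAT ratio, with 30.4, 29.7 and 26.9 CPM in WT, 17.38, 12.9 and 12.2 CPM in OE APOLO and 5.81, 5.13 and 2.68 CPM in OE UPAT. It was lower in OE UPAT than in OE APOLO by a log2 fold change of -1.65 ± 0.19 (SE, adjusted p = 1.4e-05, edgeR). The pseudogene AT2G38980 was at 0.658 and 0.494 times WT.

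Reads of the other 4 non-coding members could come from a gene at the same place. The row of MIR2936 (AT4G04125, chr4:1046804-1046983) lies wholly inside SAG21 on the same strand, over 180 bases, and its ratios of 0.629 and 0.604 were close to those of SAG21, so the row cannot be told apart from SAG21 and counts as uncertain. The long noncoding RNAs AT4G06410, AT2G31751 and AT5G06865 lie antisense to AT4G16670, UGT74D1 and PGIP1. Use of the strand in counting was not stated, and a share of reads from the sense partners was not tested. The ratios were 0.972 and 0.557 for AT4G16670 beside 0.445 and 0.265 for AT4G06410, and 1.17 and 1.1 for UGT74D1 beside 0.637 and 0.611 for AT2G31751. They were 1.12 and 1.54 for PGIP1 beside 0.572 and 0.663 for AT5G06865. In all, 27 members (38.6%) overlapped another gene row, as 33.3% of the genes over 5 CPM did. A fractional count in at least 1 library was seen for 23 members and for 28.2% of the genes over 5 CPM. Of the 23, 6 had one in at least 5 libraries: AT4G16857 (9), AT5G16980 (8), DOGT1 and AT2G31751 (7 each), BGLU10 (6) and AT2G15880 (5). The part of shared reads in their values was not tested.

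The pair of glutaredoxin-like members, AT4G15680 and AT4G15700, are small thioredoxin superfamily genes near each other on chromosome 4. They had 13.0 ± 1.9 and 12.5 ± 1.7 CPM in WT, 8.22 ± 2.5 and 8.31 ± 0.49 CPM in OE APOLO and 5.14 ± 0.47 and 5.04 ± 1.5 CPM in OE UPAT (SD, n = 3). AT4G15690, between them and of the same superfamily, was at 0.710 and 0.412 times WT and missed the limit in OE APOLO. AT4G15700 was called lower in OE UPAT than in OE APOLO (adjusted p = 0.00846, edgeR) and AT4G15680 was not (0.0216). Shared reads between such close copies cannot be separated here.

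A further 11 members had other or no known roles. AT1G19530 ranked second by its larger ratio, with 114, 96.5 and 94.6 CPM in WT, 49.4, 36.6 and 30.1 CPM in OE APOLO and 29.1, 36.5 and 28.04 CPM in OE UPAT. Its neighbour AT1G19540, on the same strand, is the NmrA-like member described above. AT3G48390, an MA3 domain protein, was at 0.496 and 0.299 times WT and lies directly after the peptidase AT3G48380. AT4G15990, of no known role, had 18.9, 20.02 and 18.3 CPM in WT, 12.9, 9.96 and 5.83 CPM in OE APOLO and 11.6, 10.9 and 9.43 CPM in OE UPAT. AT3G16120, of the dynein light chain family, was the member with every OE UPAT value (4.5 to 4.8 CPM) above every OE APOLO value (3.07 to 3.94 CPM), though the adjusted p was 0.101 (edgeR). AT2G29670, with tetratricopeptide repeats, and the nucleoside triphosphate hydrolase AT4G16680 were lower in OE UPAT than in OE APOLO, as was AT3G48390. The remaining AT4G33666, AT5G40720, AT3G20340, AT5G23380 and AT2G35170 lay between 0.636 and 0.662 times WT in OE APOLO and between 0.487 and 0.662 times in OE UPAT.

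The members were spread over the 5 chromosomes, with 24.3% on chromosome 4, where 15.5% of the genes over 5 CPM lie. From IAGLU to AT4G16857 (chr4:8877590-9483913 of TAIR10.1), a stretch singled out after the positions were seen, 8 of 93 genes over 5 CPM were members (8.60%, against 0.476% of all such genes). They were IAGLU, AT4G15680, AT4G15700, AT4G15990, AT4G06410, AT4G16680, MES16 and AT4G16857, and AT4G06410, AT4G16680 and MES16 lie side by side on the minus strand within chr4:9386180-9393650. The other 85 genes of the stretch had median ratios to WT of 0.967 in OE APOLO and 0.915 in OE UPAT.

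Exonic length had a median of 1727 bases over the members and 1867 bases over the genes over 5 CPM, and the number of exons a median of 3 against 5. Promoters (250 bases before to 50 after the annotated start) of the 63 protein-coding members were searched on both strands. ACGTGT or ACGTGG, the core of the abscisic acid response element, was in 24 of the 63 (38.1%) and in 20.6% of 14476 promoters of genes over 5 CPM. The core was in 15 of 30 protein-coding members called lower in OE UPAT than in OE APOLO and in 9 of the other 33. It was in 4 of the 7 genes of amino acid breakdown, with 2 matches in the promoter of MGL.

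The G-box CACGTG was in 9 members (14.3%, against 9.15%), and all 9 also held the abscisic acid core, which overlaps it in letters. So did 90.2% of the 1324 genes over 5 CPM with a G-box. GAAGAA was in 23.8% of the members' promoters and in 38.6% of all promoters. TATCCA, a sugar response element, was in 20.6% against 17.1%, TTGACC or TTGACT (the W-box) in 31.7% against 32.3%, TGTCTC (auxin response) in 12.7% against 13.1%, and AAAATATCT (the evening element) in 1.59% against 3.15%. ACTCAT, added after the members were known, was in 14.3% against 13.7%. These shares are descriptions of letters in a window.

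**Figure D5:**
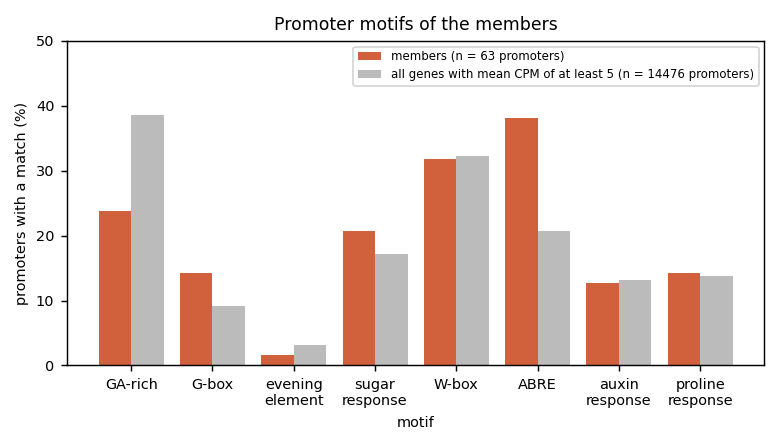
Share of promoters (vertical axis, %) with at least 1 match to each motif (horizontal axis) among the 63 protein-coding members (orange) and the 14476 protein-coding genes with a mean CPM of at least 5 (grey). The abscisic acid core (ABRE) reaches 38.1% against 20.6%, and the GA-rich motif (GAAGAA) 23.8% against 38.6%.

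Just inside the ratio limit were IVD and CAD1 (AT1G72680, annotated as a cinnamyl-alcohol dehydrogenase), with larger ratios of 0.665 and 0.666. Just outside were AT5G18600, another thioredoxin superfamily gene, and FLS2, the receptor of bacterial flagellin, both with larger ratios of 0.6703.

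The spread between replicates was somewhat larger for members than in general, with a median coefficient of variation of 8.30% in WT, 11% in OE APOLO and 10.6% in OE UPAT, against 6.82%, 7.81% and 7.97% over all genes over 5 CPM. WT A held the highest of the 3 WT values for 39 of the 70 members and for 20.7% of all genes over 5 CPM, and OE APOLO A held the highest OE APOLO value for 44 members and for 46.4% of all such genes. The rule returned 106 genes without OE APOLO A, 67 of them members, and from 65 to 92 genes without any one of the other 8 libraries, and 39 of the 70 members were returned in all 9 cases. With library sizes scaled by TMM (trimmed mean of M-values) it returned 54 genes, all of them members.

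Markers of other cell types were read beside the members. Shares called against WT over all genes tested stand beside the marker counts here and in the next paragraph. They were 2.27% lower and 4.27% higher in OE APOLO, and 9.72% lower and 10.1% higher in OE UPAT. Of 10 phloem markers, 3 were called lower than WT in each line (SUC2, PP2-A1 and SWEET12; edgeR, adjusted p under 0.01), and the summed level was 562 to 607 CPM in WT, 365 to 517 CPM in OE APOLO and 418 to 433 CPM in OE UPAT. None of the 10 was at 0, and BRX was the lowest. The list of mesophyll and chloroplast markers summed to 58654 to 66978 CPM in WT, 62738 to 67222 CPM in OE APOLO and 67045 to 74268 CPM in OE UPAT, with 1 and 6 of 10 called higher than WT.

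Of 13 genes tested on the epidermis and cuticle list, 6 were called higher and 1 lower than WT in OE APOLO, and 5 higher and 2 lower in OE UPAT. The FDH row of this list, AT5G14780, was matched by symbol and is a formate dehydrogenase gene, not an epidermis marker. It was 1 of the 2 called lower in OE UPAT, at 0.440 times WT. LTPG1 was at 1.65 and 1.67 times WT, PDF1 was at 1.79 and 1.91 times, and SHN1 was at 0 in every library. CER1 was at 0.352 times WT in OE APOLO, where it was called lower, and at 1.44 times in OE UPAT, where it was not called. TTG1 was called lower in OE UPAT, at 0.772 times WT, and was not called in OE APOLO, at 0.920 times. With the FDH row included, the list summed to 1080 to 1135 CPM in WT, 1376 to 1652 CPM in OE APOLO and 1249 to 1327 CPM in OE UPAT. The FDH row alone averaged 169, 152 and 74.4 CPM in these groups. Of 13 endodermis and suberin markers, 3 were called higher in OE APOLO (FAR4, CYP86B1 and CYP86A1) and 1 lower in OE UPAT (CASP5), with sums of 199 to 223 CPM in WT, 213 to 259 CPM in OE APOLO and 196 to 206 CPM in OE UPAT. Of the guard cell, root hair cell, xylem and shoot meristem markers, 1 root hair marker was called lower than WT in OE UPAT and no other was called against WT (edgeR, adjusted p under 0.01). The part of these shifts in the members' levels was not tested. Pollen markers were at most 0.365 CPM in sum in any library, and the root cap marker at most 0.512 CPM.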

How the data were processed

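RNA from whole seedlings was sequenced in 9 libraries. Per the study's methods, the authors prepared stranded mRNA libraries, sequenced single-end reads, trimmed them with Trimmomatic (0.36), removed ribosomal reads with SortMeRNA, aligned to TAIR10 with STAR (2.5.2b) and counted reads with featureCounts of Subread (1.6.5) on Araport11. The authors' tables hold expected counts (some fractional), whose handling of shared reads and of strand is not given in the sources used here. They were rounded to whole numbers for tests. Transposable element rows (31189, at most 0.272% of counts) were left out, and organelle rows (296) were kept for tests and left out of CPM.

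The members and lists were chosen with earlier results of these data known. Tests used edgeR 4.0.16 in R 4.3.3 (filterByExpr, TMM, quasi-likelihood, 3 groups in 1 fit, Benjamini-Hochberg, adjusted p under 0.01; 20021 genes tested), tested on simulated data; standard errors are the estimate over the root of F. DESeq2 1.42.0 was an alternative. P-values measure the spread between the 3 replicates a group. Replicate letters did not pair samples: same-letter deviations correlated from -0.217 to 0.152. Replicates differed beyond counting noise, with 1.76 to 7.11 chi-square units per gene. Of 689 list symbols, 610 matched RefSeq names (TAIR10.1, whose coordinates are 1-based); 3 genes were added to the branched-chain list by locus after the members were seen. Named were the first 20 members by larger ratio, the 6 highest in CPM, the 6 smallest p per direction between the lines, list members, neighbours, near-limit genes and families of at least 3; the rest were named so that every member is accounted for. The promoter sequence of 1 further member is not reported here.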

Additional observations from a re-analysis of the deposited data

Results flagged for a closer look

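The level differed between the overexpressor lines for 33 of the 70 members, all lower in OE UPAT than in OE APOLO by the direct test (edgeR's quasi-likelihood test, Benjamini-Hochberg adjusted p under 0.01). The 6 with the smallest p were SIS (log2 fold change -1.49), PDS1 (-1.25), AT1G21400 (-1.19), IVD (-0.90), BCAT-2 (-1.03) and MGL (-1.06). In each of the 6, all 3 OE UPAT libraries were below all 3 OE APOLO libraries. The members were chosen with limits on the values of both lines, so the difference between the lines is not independent of that choice.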

How the results depend on the processing

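The direct comparison of OE UPAT with OE APOLO called 33 members, and from 27 to 32 when 1 library was left out; 26 of the 33 were called in every fit. The count with the replicate block was 33, the same 33 members, and the block changed the call of no named member. Against WT, the counts ranged from 43 to 60 in OE APOLO and from 59 to 68 in OE UPAT with 1 library left out. The rule returned 133 genes at a minimum of 1 CPM, 8 at a ratio limit of 0.5, and from 65 to 106 without 1 library. Of 600 refits of the 40 named members between the lines, 555 kept direction and side of the threshold, 34 lost the call and 4 gained it. The sign turned 7 times, each for a value not called: SAG21 was 0.021 with upper-quartile factors and ranged from -0.09 to 0.058 with 1 library left out (positive without OE APOLO B, OE UPAT A or OE UPAT C), HDG7 from -0.066 (without OE UPAT B) to 0.17, AT4G15990 from -0.12 (without OE APOLO C) to 0.36 and AT5G06865 from -0.019 (without OE UPAT C) to 0.31; the cause was not tested. Depth limited the OE UPAT libraries most, where 3 counts are up to 0.382 CPM.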
